A study of Mus musculus with 4 samples.

Results

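Matricellular proteins are secreted, sit in the extracellular matrix and signal to cells through integrins and other receptors rather than serving mainly as scaffold. The 10 genes described here were the thrombospondins *Thbs1*, *Thbs2* and *Thbs3*, *Sparc* and its relative *Sparcl1*, the CCN genes *Ccn1* (the older name is *Cyr61*) and *Ccn2* (*Ctgf*), the fibronectin gene *Fn1*, the tenascin gene *Tnc* and the periostin gene *Postn*. They are 10 of the 25239 genes in the count tables, and all 10 passed the filter on low counts that left 13919 genes. They were picked because *Thbs1* was known to be higher, and other stromal genes lower, in the CD4/ALK4-KO-labelled libraries. The differences of these 10 genes between the genotypes are therefore given as a description, with no test.

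The data were RNA-Seq read counts of CD4+ T cells from tumor-bearing lungs of C57BL/6 mice, with 2 libraries under the WT label and 2 under the CD4/ALK4-KO label. All mice carried lung tumors grown from intravenously injected LLC-OVA cells, which are Lewis lung carcinoma cells that express ovalbumin, and the labels give removal of the tumors after 18 to 22 days. The methods for this knockout model give a somewhat earlier window, and which applies to these libraries cannot be told from the sources. The CD4/ALK4-KO mice are CD4CreERT2+/-/Acvr1bfl/fl. In them tamoxifen (75 mg/kg in each of 5 doses) activates a Cre recombinase driven by the *Cd4* promoter, which deletes *Acvr1b*, the gene of the activin receptor ALK4. Deletion is thus limited to cells that hold this Cre around the time of tamoxifen, and to their descendants. The study used male mice of 8 to 10 weeks, and whether the WT mice also received tamoxifen is not given in the sources used here. The sources do not say how many mice went into each library.

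The libraries held 11823908 to 13943237 counts. The targeted gene *Acvr1b* had 426 and 342 counts in the WT-labelled libraries and 322 and 445 in the CD4/ALK4-KO-labelled ones, so these counts did not separate the labels. Its log2 fold change was 0.16, or -2.01 when scaled to the T cell receptor complex, which shifted the median of all genes by -2.18. Counts of a whole gene in a mixed isolate do not show whether T cells had lost a part of it. Markers of T cells, 14 genes from *Cd3d* to *Bcl11b*, summed to 515 and 471 CPM (counts scaled to a common library size) in the WT-labelled libraries. In the CD4/ALK4-KO-labelled ones these markers summed to 2765 and 2654 CPM. All 14 were higher at an adjusted p under 0.05 by edgeR, as were 17.4% of all genes. Markers of fibroblasts, 10 genes led by the collagen gene *Col3a1* and the decorin gene *Dcn*, summed to 7310 and 7858 CPM in the WT-labelled libraries and to 5017 and 4287 CPM in the CD4/ALK4-KO-labelled ones. *Cd4* itself, the marker the cells were isolated by, had 759 and 649 counts in the WT-labelled libraries and 3654 and 4033 in the other pair (log2 fold change 2.62, edgeR adjusted p = 2.8e-08, or 0.062 when scaled to the T cell receptor complex). Markers of fibroblasts were thus present in all 4 libraries of this CD4+ isolate, and their part and that of the T cell content in the values given here was not tested. In bulk RNA, fewer cells of a type and less RNA per cell cannot be told apart.

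As background, thrombospondin-1 is released by platelets and made by monocytes, macrophages and fibroblasts. It binds CD47 and CD36, restrains the growth of blood vessels and can activate latent TGF-β, a relative of activin. SPARC binds collagen and takes part in fibril assembly. The CCN proteins bind integrins, and their genes are well-known targets of YAP and TAZ, coactivators that act through the TEAD transcription factors.

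Since thrombospondin genes are related in sequence, it was first asked whether reads of one could be counted on another. Between the longest annotated coding sequences of *Thbs1* (3513 bp) and *Thbs2* (3516 bp), 69.0% of the aligned bases were identical. *Thbs1* and *Thbs3* shared 65.3% of aligned bases, *Thbs2* and *Thbs3* 63.9%, *Sparc* and *Sparcl1* 71.4%, and *Ccn1* and *Ccn2* 62.7%. The longest stretch without a difference between *Thbs1* and *Thbs2* was 26 bp, well short of a 75 bp read. It is printed in capitals within 75 bp of coding sequence, from exon 15 of *Thbs1* on the plus strand (chr2:118120869-118120943, GRCm38) and from exon 15 of *Thbs2* on the minus strand (chr17:14676259-14676333).
Thbs1: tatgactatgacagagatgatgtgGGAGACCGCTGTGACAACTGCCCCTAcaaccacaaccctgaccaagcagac
Thbs2: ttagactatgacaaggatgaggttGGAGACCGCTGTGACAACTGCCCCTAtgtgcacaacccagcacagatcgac

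The same comparison of *Ccn1* and *Ccn2* gave a longest shared run of 18 bp, in exon 2 of both genes. The run is again in capitals, with *Ccn1* on the minus strand (chr3:145649312-145649386) and *Ccn2* on the plus strand (chr10:24595934-24596008).
Ccn1: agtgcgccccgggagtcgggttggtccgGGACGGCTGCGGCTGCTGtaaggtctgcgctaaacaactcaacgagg
Ccn2: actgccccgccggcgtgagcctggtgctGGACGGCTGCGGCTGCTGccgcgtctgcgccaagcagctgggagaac

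No 75 bp word of the transcripts of *Thbs2*, *Sparc*, *Sparcl1*, *Ccn1* or *Postn* occurred in a transcript of another gene on either strand. Words shared with other genes made up 1.07% of *Thbs1*, 2.48% of *Thbs3*, 1.5% of *Fn1* and 0.399% of *Tnc*, and none of them lay in another of the 10 genes. The share was largest for *Ccn2*, at 14.6%, all with *Gm15270*, which covers 23.2% of its exonic length on the opposite strand. *Gm15270* had 1 count in all 4 libraries together. *Thbs3* overlaps *Mtx1* on the opposite strand over 6.59% of its exonic length, and *Mtx1* had 495 and 358 counts in the WT-labelled libraries against 338 and 346 in the CD4/ALK4-KO-labelled ones. The library kit does not mark strand, so reads in these overlaps cannot be assigned to either gene. The strand setting of the counting is not given. The counts of *Gm15270* and *Mtx1* thus do not show how many reads in the overlaps came from either strand.

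Per kb of exon, the 10 genes spanned about 2 orders of magnitude in the WT-labelled libraries. The length used merges all annotated exons of a gene over its transcripts and can exceed that of the transcripts present. The order between genes depends on it and is given for this length only. By counts, the ratio of *Thbs1* to *Fn1* was 0.611 and 0.716 in the WT-labelled libraries, and that of *Thbs1* to *Sparc* 1.0 and 1.01. *Sparc* was the most abundant at 202 ± 2.94 CPM per kb (mean ± SD, n = 2), followed by *Thbs1* at 127 ± 0.709 and *Fn1* at 99.8 ± 11.7, and the ranges of these 3 genes did not overlap. *Thbs2* (60.7 ± 9.83 CPM per kb) and *Ccn1* (54.6 ± 11.4) came next and did not differ beyond their spread. *Sparcl1* had 13.5 ± 0.407 CPM per kb and *Thbs3* 5.63 ± 1.12. At the low end, *Ccn2* (2.71 ± 0.901 CPM per kb), *Postn* (2.44 ± 1.13) and *Tnc* (2.05 ± 0.108) overlapped one another.

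In the libraries labelled CD4/ALK4-KO the order on the same merged length was led by *Thbs1*, with 255 and 381 CPM per kb. It was ahead of *Sparc* with 226 and 214 and *Fn1* with 90.0 and 122. The ranges of these 3 genes did not overlap there either. *Ccn1* and *Thbs2* again overlapped, now at means of 22.9 and 22.6 CPM per kb. *Sparcl1* followed with 5.55 ± 0.729 CPM per kb (SD, n = 2). *Thbs3*, *Ccn2*, *Tnc* and *Postn* lay between 1.09 and 4.49 CPM per kb, with *Thbs3* overlapping *Ccn2*. The 10 genes together held 0.347% and 0.308% of all counts in the WT-labelled libraries and 0.366% and 0.509% in the others. *Thbs1* alone made up 21.9% and 24.1% of the counts of the 10, against 42.1% and 47.4%. Together *Thbs1*, *Fn1* and *Sparc* held 79.8% and 81.6% of the counts of the 10 genes in the WT-labelled libraries and 94.0% and 93.3% in the CD4/ALK4-KO-labelled ones.

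**Figure D1:**
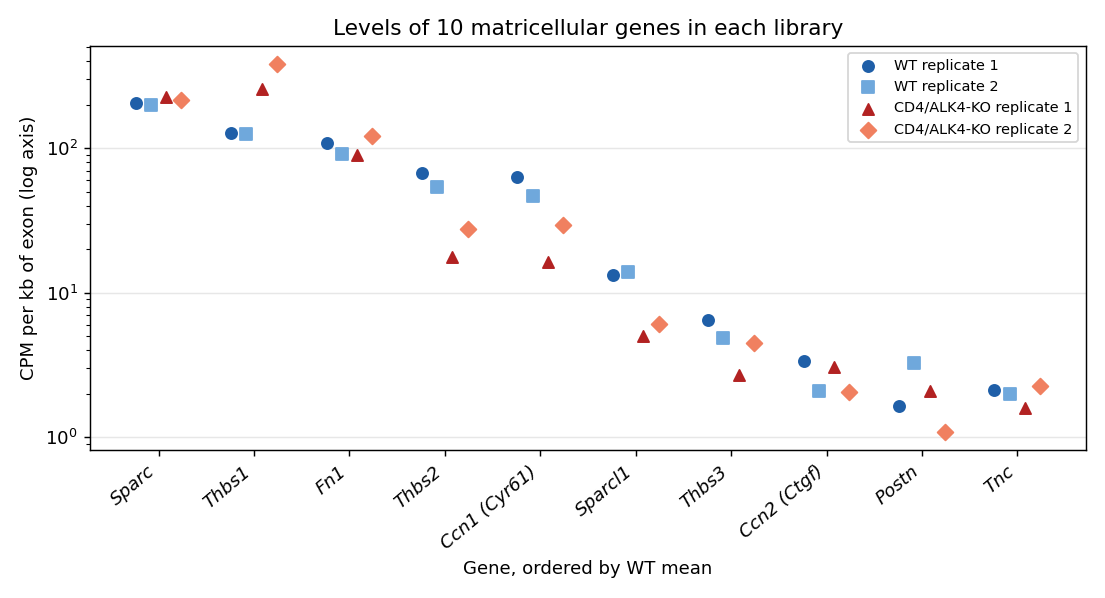
Levels of the 10 genes as CPM per kb of exon on a log axis, with 1 point per library. *Thbs1* sits at 126 to 127 in the WT-labelled libraries and at 255 to 381 in the CD4/ALK4-KO-labelled ones. In contrast, *Thbs2*, *Ccn1*, *Sparcl1* and, by a narrow margin (4.49 against 4.83), *Thbs3* have both CD4/ALK4-KO points below both WT points.

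*Thbs1* (chromosome 2, 118111876 to 118127133, plus strand, GRCm38) had the largest difference upward of the 10 genes. It had 10577 and 10358 counts in the WT-labelled libraries and 18434 and 28535 in the CD4/ALK4-KO-labelled ones, or 772 and 766 CPM against 1549 and 2311 CPM. Both CD4/ALK4-KO libraries lay above both WT libraries, which differed from each other by a ratio of 0.992, whereas replicate 2 was 1.49 times replicate 1 within CD4/ALK4-KO. The log2 fold change was 1.33 (standard error 0.22), which is 2.51-fold, and it was 1.0 with replicate 2 of CD4/ALK4-KO left out and 1.62 with replicate 1 left out. By CPM, *Thbs1* ranked 164th and 165th of the genes tested in the WT-labelled libraries and 33rd and 18th in the CD4/ALK4-KO-labelled ones.

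Scaling the libraries to the 4 counted genes of the T cell receptor complex (*Cd3d*, *Cd3e*, *Cd3g* and *Cd247*) shifted the median log2 fold change over all genes by -2.18. There *Thbs1* was at -0.84, so that its direction turned, which is 1.34 above the median shift. The other 9 genes were at -2.06 or below on that scale, and *Sparc* and *Fn1* turned direction too.

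Cell types that make thrombospondin-1 were looked at beside these values. The 10 platelet markers summed to 390 and 298 CPM in the WT-labelled libraries and to 177 and 184 CPM in the CD4/ALK4-KO-labelled ones. The sums were carried by the chemokine genes *Pf4* and *Ppbp*, which were lower with log2 fold changes of -1.23 (adjusted p = 0.00051) and -0.71 (adjusted p = 0.020) by edgeR. The other 5 platelet markers tested did not pass the threshold and did not share a direction, with *Gp1ba* at 1.49 (adjusted p = 0.074), *Tubb1* at 0.16, *Itga2b* at 0.06, *Gp9* at -0.20 and *Clec1b* at -0.29. No platelet marker was called higher (1 at an unadjusted p under 0.05, none with DESeq2). The platelet genes *Gp6* and *Treml1* were each at 0 in 1 library. Monocyte markers, 7 genes led by *Vcan* and *Chil3*, summed to 2630 and 3320 CPM against 2951 and 2164 CPM. Of the 7, 2 were higher (17.4% of all genes were), *Ly6c2* (1.24, adjusted p = 0.00039) and *Ccr2* (0.63, adjusted p = 0.041). Lower was 1 (15.4% of all genes were), *Chil3* (-0.83, adjusted p = 0.0075). Not called were *F13a1* at -0.57 (adjusted p = 0.055), *Mgst1* at -0.56 (adjusted p = 0.068), *Vcan* at -0.49 (adjusted p = 0.095) and *Clec4e* at 0.17. The median of the 7 was -0.49. At an unadjusted p under 0.05, 4 were lower and 2 higher, and with DESeq2 2 were lower and 2 higher. Macrophage markers, 10 genes led by *Apoe* and *Mrc1*, summed to 3019 and 1985 CPM against 1866 and 2183 CPM. Of the 10, *Csf1r* was higher (0.70, adjusted p = 0.022), and 9 were not called. Of these, *Apoe* was at -0.41 (adjusted p = 0.22), *Mrc1* at -0.42 (adjusted p = 0.15), *C1qc* at -0.56 and *C1qa* at -0.49. *Adgre1* was at -0.47, *C1qb* at -0.46, *Marco* at -0.37, *Mertk* at -0.16 and *Cd68* at 0.34. The median of the 10 was -0.42. At an unadjusted p under 0.05, 2 were lower and 1 higher, and with DESeq2 0 were lower and 1 higher. The sums of the monocyte and macrophage lists overlapped between the labelled genotypes, and the part of these cells in the level of *Thbs1* was not tested.

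The genes whose profile over the 4 libraries was closest to that of *Thbs1*, by the root mean square difference of centred log2 CPM among 9912 genes whose mean level reached 10 CPM, were *Pcnt* (0.0319), *Arhgap30* (0.0392), *Arhgap27* (0.0432), *Il6ra* (0.0473) and *Mlxip* (0.0474). *Arhgap30*, for example, had 78.5 and 76.3 CPM in the WT-labelled libraries and 163 and 247 CPM in the CD4/ALK4-KO-labelled ones. With 4 libraries, the likeness rests on few values.

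*Thbs2* (chromosome 17, 14665500 to 14694235, minus strand), whose product shares the domain layout of thrombospondin-1, lay in the opposite direction. It had 473 and 376 CPM in the WT-labelled libraries and 123 and 194 CPM in the CD4/ALK4-KO-labelled ones, with no overlap. The log2 fold change was -1.42 (standard error 0.24), a level 2.68 times higher in the WT-labelled libraries, and ran from -1.80 to -1.10 over the fits that each left out 1 library. *Thbs3* (chromosome 3, 89215180 to 89226837, plus strand) encodes a shorter thrombospondin of the pentameric kind. Its levels were 30.9 and 23.3 CPM against 12.9 and 21.6 CPM, where the higher CD4/ALK4-KO library came close to the lower WT library. Its log2 fold change of -0.65 (standard error 0.28) was -0.30 with replicate 1 of CD4/ALK4-KO left out and -1.07 with replicate 2 left out.

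Ratios within a library do not depend on how the libraries are scaled. *Thbs1* had 1.88 and 2.35 times the CPM per kb of *Thbs2* in the WT-labelled libraries and 14.5 and 13.7 times in the CD4/ALK4-KO-labelled ones. The replicates of each genotype were thus close in this ratio, although both genes were higher in replicate 2 of CD4/ALK4-KO than in replicate 1. The ratio of *Thbs2* to *Thbs3* was 10.5 and 11.1 in the WT-labelled libraries and 6.54 and 6.18 in the CD4/ALK4-KO-labelled ones. *Thbs1* had 1.18 and 1.38 times the CPM per kb of *Fn1* in the WT-labelled libraries and 2.83 and 3.13 times in the CD4/ALK4-KO-labelled ones.

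**Figure D2:**
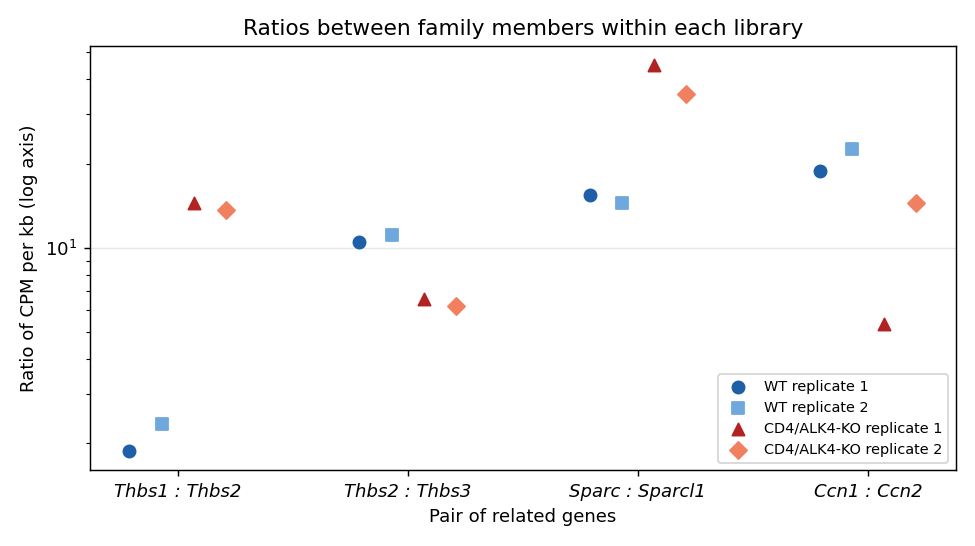
Ratios of CPM per kb between related genes within each library, on a log axis, with 1 point per library. The ratio of *Thbs1* to *Thbs2* is 1.88 and 2.35 in the WT-labelled libraries and 14.5 and 13.7 in the CD4/ALK4-KO-labelled ones, and the ratio of *Ccn1* to *Ccn2* is the most spread of the 4 pairs within CD4/ALK4-KO, at 5.35 and 14.5.

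*Sparc* (chromosome 11, 55394500 to 55423183, minus strand) had the narrowest range of the 10 genes relative to its level over the 4 libraries. It had 772 and 756 CPM in the WT-labelled libraries and 856 and 811 CPM in the CD4/ALK4-KO-labelled ones, without overlap but with a log2 fold change of only 0.13 (standard error 0.20), and the fits that each left out 1 library gave 0.10 to 0.16. *Sparcl1* (chromosome 5, 104079111 to 104113733, minus strand), which encodes a SPARC relative known from vessels and the nervous system, had 39.0 and 40.7 CPM against 14.8 and 17.8 CPM. Its log2 fold change was -1.29 (standard error 0.25), 2.44 times higher in the WT-labelled libraries, with a range of -1.43 to -1.13 without each library. Per kb, *Sparc* exceeded *Sparcl1* by 15.4 and 14.4 times in the WT-labelled libraries and by 44.9 and 35.3 times in the CD4/ALK4-KO-labelled ones. Among genes of fibroblasts, which also express *Sparc*, *Col3a1* (log2 fold change -0.93, adjusted p = 0.00079) and *Dcn* (-0.69, adjusted p = 0.018) were lower in edgeR's quasi-likelihood test. Of the 10 fibroblast markers, 5 were lower (15.4% of all genes were), and these 2 had the most counts. *Pdgfrb* was among the 5 by a narrow margin (-0.73, adjusted p = 0.049), and with DESeq2 4 were lower. The 5 not called were *Mfap5* at -0.70, *Col1a2* at -0.28, *Col1a1* at -0.21, *Fbn1* at -0.12 and *Pdgfra* at 0.22.

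*Ccn1* (chromosome 3, 145646976 to 145649981, minus strand) had 127 and 94.1 CPM in the WT-labelled libraries and 32.7 and 59.9 CPM in the CD4/ALK4-KO-labelled ones. The groups did not overlap, and the CD4/ALK4-KO libraries differed from each other by a ratio of 1.83. The log2 fold change of -1.25 (standard error 0.26) was -0.85 with replicate 1 of CD4/ALK4-KO left out and -1.76 with replicate 2 left out. *Ccn2* (chromosome 10, 24595442 to 24598683, plus strand), which is controlled by many of the same signals, had 9.56 and 5.91 CPM against 8.65 and 5.83 CPM. These ranges overlapped, and its log2 fold change of -0.10 (standard error 0.35) ran from -0.41 to 0.28. With 72 to 131 counts per library and the opposite-strand overlap given above, the level of *Ccn2* rests on the fewest counts among the 10. Per kb, *Ccn1* exceeded *Ccn2* by 18.8 and 22.5 times under the WT label and by 5.35 and 14.5 times under the CD4/ALK4-KO label.

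*Fn1* (chromosome 1, 71585520 to 71653200, minus strand), which encodes the fibronectin of plasma and matrix, had 1263 and 1070 CPM in the WT-labelled libraries and 1053 and 1424 CPM in the CD4/ALK4-KO-labelled ones. The CD4/ALK4-KO libraries lay on either side of both WT libraries, and the log2 fold change was 0.09 (standard error 0.21). *Tnc* (chromosome 4, 63959785 to 64047015, minus strand), which is induced in wounds and tumor stroma, had 16.5 and 15.3 CPM against 12.3 and 17.6 CPM, a log2 fold change of -0.09 (standard error 0.28). *Postn* (chromosome 3, 54361109 to 54391037, plus strand), a gene of activated fibroblasts, had 14.3 and 28.2 CPM against 18.1 and 9.48 CPM. Its replicates differed by ratios of 1.97 within WT and 0.522 within CD4/ALK4-KO. Its log2 fold change of -0.62 (standard error 0.34) ran from -1.13 to -0.06.

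**Figure D3:**
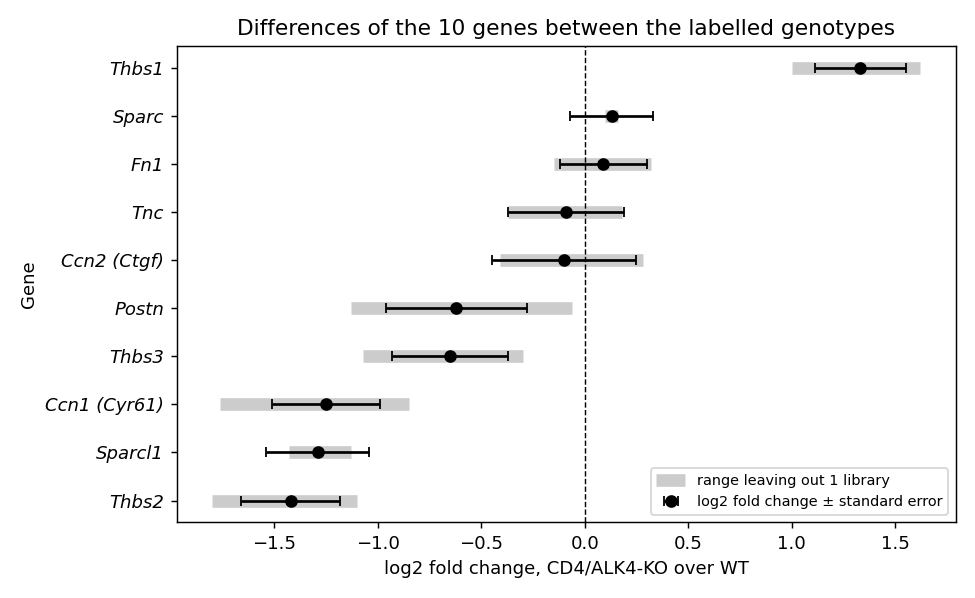
Log2 fold change of each gene, CD4/ALK4-KO over WT, with its standard error as a bar and a grey band for the range when each library is left out. *Thbs1* is at 1.33, *Thbs2*, *Sparcl1* and *Ccn1* are between -1.42 and -1.25, and the bands of *Fn1*, *Tnc* and *Ccn2* cross 0.

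Both CD4/ALK4-KO libraries lay above both WT libraries for 2 of the 10 (32.7% of all genes tested) and below them for 4 (34.0%). The genes were chosen on this contrast, so these counts carry no weight of their own. The median log2 fold change of the 10 was -0.36, beside -0.01 over all genes. Within the genotypes, 8 of the 10 genes were lower in WT replicate 2 than in replicate 1, and 7 of the 10 were higher in CD4/ALK4-KO replicate 2 than in replicate 1. The WT ratios of *Thbs1* (0.992) and *Sparc* (0.98) were close to equal. The same shares over all genes were not taken, so whether the 10 stand out in this is not known.

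Promoter sequence was compared for the members with an entry in the RefSeq table of start sites (GRCm38.p6), *Thbs2*, *Thbs3*, *Sparc*, *Ccn1*, *Tnc* and *Postn*. *Thbs1*, *Sparcl1*, *Ccn2* and *Fn1* were not analysed in this way. The 250 bases before each start were searched on both strands for GGAATG (the TEAD element), CAGAC (the core of the SMAD-binding CAGA box), TGANTCA with C or G at the open base (AP-1), the CArG box of SRF, and TATAAA. The promoters of *Ccn1* and *Thbs2*, the members with an entry that lay farthest down, are shown with every match in capitals, and that of *Sparc* is shown as a steady member. They lie on the minus strand of chr3:145649986-145650235, chr17:14694263-14694512 and chr11:55420081-55420330.
Ccn1: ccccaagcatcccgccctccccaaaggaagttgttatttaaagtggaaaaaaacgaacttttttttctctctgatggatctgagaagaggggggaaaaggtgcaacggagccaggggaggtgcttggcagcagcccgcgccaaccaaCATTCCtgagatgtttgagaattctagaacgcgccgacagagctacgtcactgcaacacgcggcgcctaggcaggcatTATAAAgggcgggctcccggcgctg
Thbs2: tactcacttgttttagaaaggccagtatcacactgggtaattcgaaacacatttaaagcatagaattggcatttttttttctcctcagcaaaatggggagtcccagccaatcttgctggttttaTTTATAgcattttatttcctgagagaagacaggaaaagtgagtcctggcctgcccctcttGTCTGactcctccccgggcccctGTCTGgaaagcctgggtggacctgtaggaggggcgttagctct
Sparc: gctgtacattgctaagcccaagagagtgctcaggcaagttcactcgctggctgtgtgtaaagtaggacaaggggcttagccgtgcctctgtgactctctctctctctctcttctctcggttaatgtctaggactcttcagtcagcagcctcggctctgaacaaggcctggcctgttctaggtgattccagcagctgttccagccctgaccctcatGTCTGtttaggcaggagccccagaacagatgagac

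The *Ccn1* promoter held the TEAD element on the opposite strand, with its first base 103 bases before the start, and a TATAAA at 25 bases. Among 32851 promoters of the same length, 12.6% held the TEAD element and 12.4% TATAAA. The *Thbs2* promoter held CAGAC on the opposite strand at 66 and 43 bases before the start, an element found in 42.2% of promoters, and *Sparc* held 1 such match at 35 bases. *Thbs2* also held TATAAA on the opposite strand at 126 bases. *Tnc* and *Postn*, with 2 annotated starts each, held TATAAA and CAGAC matches, and no match overlapped another. None of the 6 genes had an AP-1 match (4.46% of promoters) or a CArG match (1.47%), and *Thbs3* had no match at all. These matches describe the letters of the window and do not show binding.

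The relatives of these genes were examined in a list of 28 matricellular genes without the 10, of which 19 passed the filter. This list, and those of receptors, latent TGF-β genes and YAP/TEAD genes below, were drawn up with earlier results of these data known. Their shares beside all genes are therefore a description. In edgeR's quasi-likelihood test 9 were lower (47.4%, against 15.4% of all genes), and with DESeq2 8 were. None was higher in either, nor at an unadjusted p under 0.05 in edgeR. The median log2 fold change was -0.69, beside -0.01 over all genes. Without WT replicate 1, 3 were lower, and with the replicate number as a block 5 were.
The osteopontin gene *Spp1* was the most abundant by counts and had 2660 and 2311 CPM in the WT-labelled libraries and 965 and 843 CPM in the CD4/ALK4-KO-labelled ones, which is -1.46 on the log2 scale (standard error 0.20, adjusted p = 9.6e-06, edgeR). The pleiotrophin gene *Ptn* had 231 and 268 CPM against 77.4 and 116 CPM, a log2 fold change of -1.37 (adjusted p = 0.00011). Both CD4/ALK4-KO libraries were below both WT libraries for *Spp1* and *Ptn*. The elastic fibre gene *Fbln5* (-1.09, adjusted p = 0.018) and *Fstl1* (-0.69, adjusted p = 0.016), which encodes a secreted glycoprotein of the SPARC family, were also lower. *Fbln5* was at -0.74 (adjusted p = 0.40) without WT replicate 1, and the adjusted p of *Fstl1* was 0.17 without WT replicate 1, 0.18 without WT replicate 2 and 0.088 with the replicate block. *Tgfbi*, the closest relative of *Postn*, had 419 and 488 CPM against 557 and 611 CPM, or 0.36 on the log2 scale (standard error 0.21, adjusted p = 0.20), which did not pass the threshold, although it did without CD4/ALK4-KO replicate 1 (0.46, adjusted p = 0.027).

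Within the CCN family, *Ccn4* had 39.9 and 48.3 CPM in the WT-labelled libraries and 23.8 and 20.3 CPM in the CD4/ALK4-KO-labelled ones, with a value of -1.0 on the log2 scale (standard error 0.24, adjusted p = 0.0024, edgeR), and an adjusted p of 0.087 without WT replicate 2. *Ccn3* was at -0.88 (adjusted p = 0.049) and was past the threshold by a narrow margin. Its adjusted p was 0.090 with DESeq2's Wald test, 0.053 with DESeq2's size factors, 0.11 with the replicate block, 0.60 without WT replicate 1 and 0.17 without CD4/ALK4-KO replicate 1. *Ccn5* and *Ccn6* had at most 8 counts in any library and were not tested. Other thrombospondins were scarce, as *Thbs4* had 12, 4, 8 and 18 counts and *Comp*, another gene of that family, at most 3. Of the other SPARC relatives, *Spock2* (0.13, adjusted p = 0.85), *Smoc1* (-0.95, adjusted p = 0.12) and *Smoc2* (-0.45, adjusted p = 0.34) did not pass the threshold, and *Spock1* and *Spock3* were not tested. Of the tenascins, *Tnxb* was at 0.24 (adjusted p = 0.70), and *Tnr* and *Tnn* had at most 9 counts.

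Among 21 tested genes for receptors and partners of matricellular proteins, 3 were higher (14.3%, against 17.4% of all genes) and 6 lower (28.6%, against 15.4%), with a median log2 fold change of -0.10 beside -0.01 over all genes. *Itga4*, the integrin α4 subunit that binds fibronectin and osteopontin and is abundant on lymphocytes, had 103 and 180 CPM in the WT-labelled libraries and 605 and 600 CPM in the CD4/ALK4-KO-labelled ones (log2 fold change 2.09, adjusted p = 1.6e-06, edgeR). *Itgb3*, the β3 subunit that pairs with αv and with the platelet αIIb subunit, had 17.3 and 18.8 CPM against 51.9 and 67.6 CPM (1.73, adjusted p = 7.6e-06). *Sirpa*, a receptor of CD47, was the third gene called higher (0.83, adjusted p = 0.0054). The syndecan gene *Sdc1* (-1.38, adjusted p = 4.5e-05) and the integrin β5 gene *Itgb5* (-1.05, adjusted p = 0.00078) were lower.
The most abundant of these genes, *Itgb1*, was at -0.48 (adjusted p = 0.068) and the calreticulin gene *Calr* at -0.02 (adjusted p = 0.96). *Itgb1* passed the threshold with DESeq2's Wald test (adjusted p = 0.047), with upper quartile scaling (0.031), without CD4/ALK4-KO replicate 1 (0.0057) and without replicate 2 (0.031). The thrombospondin-1 receptors *Cd47* and *Cd36* were singled out after their values were seen. *Cd47* had 279 and 275 CPM against 315 and 255 CPM (0.04, adjusted p = 0.91), and *Cd36* had 306 and 339 CPM against 221 and 183 CPM (-0.68, adjusted p = 0.021). Without WT replicate 1 or 2 the number of lower receptor genes was 3, as it was with the replicate block.

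Of 10 genes for latent TGF-β and its handling, 4 were lower (40.0%, against 15.4% of all genes) and 2 higher (20.0%, against 17.4%), with a median log2 fold change of -0.50. Latent TGF-β binding proteins anchor the inactive cytokine in the matrix, and all 4 of their genes were lower. *Ltbp1* had 143 and 112 CPM in the WT-labelled libraries and 44.8 and 54.8 CPM in the CD4/ALK4-KO-labelled ones (-1.35, adjusted p = 7.1e-05, edgeR), *Ltbp4* was at -1.19 (adjusted p = 0.00062), and *Ltbp3* at -1.12 (adjusted p = 0.00059, but 0.053 without WT replicate 1). *Ltbp2*, with 18 to 81 counts, was at -1.72 (adjusted p = 0.0083). *Nrros*, which tethers latent TGF-β on myeloid cells, was higher (1.07, adjusted p = 0.0013), as was *Lrrc32*, its counterpart on regulatory T cells and platelets (1.85, adjusted p = 0.00070). The cytokine gene *Tgfb1* was at 0.26 (adjusted p = 0.42).

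The YAP/TEAD list held 27 genes, the coactivators, the TEAD factors and a choice of known targets, without any of the 10 genes described here. Of these, 17 were lower (63.0%, against 15.4% of all genes) and 3 higher (11.1%, against 17.4%), with a median log2 fold change of -0.83. Without WT replicate 1, which left fewer calls over all genes too, 5 were lower, and without WT replicate 2 it was 9. *Yap1* had 68.3 and 49.7 CPM in the WT-labelled libraries and 20.8 and 28.1 CPM in the CD4/ALK4-KO-labelled ones (-1.27, adjusted p = 0.00032, edgeR). *Tead2* had 36.9 and 28.5 CPM against 7.14 and 11.6 CPM (-1.80, adjusted p = 5.4e-05).
The targets *Ajuba* (-1.53, adjusted p = 0.00053), *Ankrd1* (-1.41, adjusted p = 0.0018) and *Axl* (-1.02, adjusted p = 0.0012) were lower. Without WT replicate 1 the adjusted p was 0.10 for *Ankrd1* and 0.068 for *Axl*. The abundant targets *Ccdc80* (0.13, adjusted p = 0.68) and *Myof* (-0.20, adjusted p = 0.52) were not called. The 3 genes called higher were *Nt5e* (1.11, adjusted p = 0.00034), *Nuak2* (0.96, adjusted p = 0.024) and *Lats2* (0.84, adjusted p = 0.0062). The fibroblast markers were lower beside this list, 5 of 10 with a median of -0.70 and none higher (also none at an unadjusted p under 0.05 or with DESeq2), and their part in it was not tested. On the T cell receptor scale 27 of the 27 were called lower, as were 12803 of all genes.

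**Figure D4:**
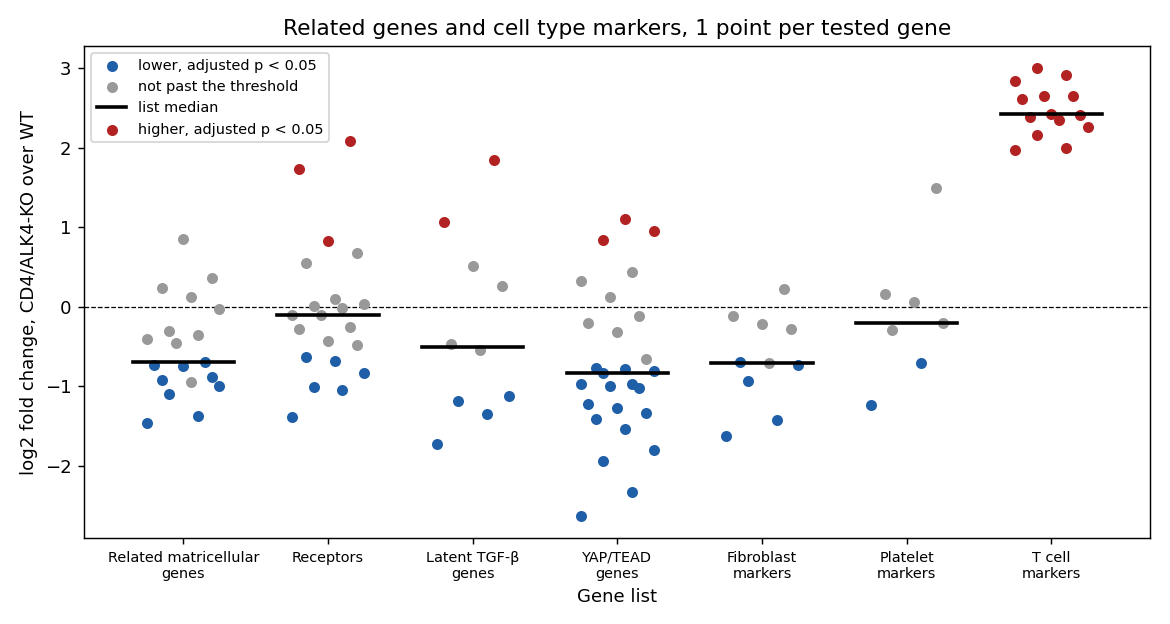
Log2 fold changes, CD4/ALK4-KO over WT, of the tested genes of 4 lists of related genes and 3 lists of cell markers, with 1 point per gene, coloured by call at an adjusted p under 0.05 (edgeR), and black bars for the list medians. The medians are -0.69 for related matricellular genes, -0.10 for receptors, -0.50 for latent TGF-β genes, -0.83 for YAP/TEAD genes, -0.70 for fibroblast markers, -0.20 for platelet markers and 2.42 for T cell markers.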

How the data were processed

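Per the methods and labels, the authors sequenced single-end reads of 75 bp, aligned them to mm10 with HISAT2 and counted them with htseq-count in intersection-nonempty mode, and they deposited raw counts per gene symbol, 1 library per file, without normalization. The annotation, strand setting and tool versions are not given in the sources used here. The library kit, TruSeq RNA v2, does not mark strand. The series calls its replicates biological but ties none to an animal, so p-values measure the spread between these libraries, which may be partly technical.

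Counts were filtered with filterByExpr and normalized with TMM in edgeR 4.0.16 (R 4.3.3). The model held genotype alone, and its robust quasi-likelihood fit was tested (glmQLFTest, two-sided, Benjamini-Hochberg over 13919 genes, threshold 0.05). The code was checked on simulated counts with the same dispersion for every gene. That check does not show how the test behaves with the spread of these data. CPM are computed on TMM-adjusted library sizes. Standard errors were taken from the log2 fold change and the F statistic (its size over the root of F). Exonic lengths (all annotated exons of a gene, merged over its transcripts) and locations are from GENCODE M21. Promoters are from RefSeq, and coding sequences were aligned with Biopython 1.88. The replicates differed by more than sampling noise (a chi-square over its degrees of freedom of 16.0 between the WT libraries and 28.7 between those of CD4/ALK4-KO).

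The members and lists were chosen with earlier results of these data known. Named in the lists were the 4 called genes with the largest change and a mean of at least 100 counts, the 3 with the most counts, and the thrombospondin, SPARC, CCN and tenascin relatives, and for markers the 2 with the most counts. *Ltbp2*, *Lrrc32*, *Tgfb1*, *Cd36*, *Cd47*, *Sirpa*, *Nt5e*, *Nuak2*, *Lats2* and the markers beyond those 2 were named after their values were seen. For scaling to the T cell receptor complex 7 genes were planned, of which 4 are in the tables. The alternatives were DESeq2 1.42.0 size factors and its Wald test, upper quartile scaling, that scaling, 2 other filters, a replicate block, the likelihood ratio test and each library left out.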

Additional observations from a re-analysis of the deposited data

How the results depend on the processing

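Of the differences of the 10 genes, none moved by more than its standard error under DESeq2's size factors or Wald test, upper quartile scaling, other filters, the likelihood ratio test or the replicate block. Scaling to the T cell receptor complex, which moved all genes by a median of -2.18, turned *Thbs1* to -0.84 and put *Thbs2* at -3.58, *Thbs3* at -2.81, *Sparc* at -2.06, *Sparcl1* at -3.47, *Ccn2* at -2.28, *Ccn1* at -3.41, *Fn1* at -2.08, *Tnc* at -2.26 and *Postn* at -2.84. With each library left out, the ranges were 1.00 to 1.62 for *Thbs1*, -1.80 to -1.10 for *Thbs2*, -1.07 to -0.30 for *Thbs3*, 0.10 to 0.16 for *Sparc*, -1.43 to -1.13 for *Sparcl1*, -0.41 to 0.28 for *Ccn2*, -1.76 to -0.85 for *Ccn1*, -0.15 to 0.32 for *Fn1*, -0.37 to 0.18 for *Tnc* and -1.13 to -0.06 for *Postn*.

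Over all genes, 2422 were higher and 2140 lower, so 53.1% of calls were higher. The T cell receptor scale gave 48 and 12803 (0.374% higher). Leaving out 1 library gave 1103 to 2923 higher and 754 to 2618 lower, the lowest of both without WT replicate 1, where 1 WT library is assumed to vary like the others. On the T cell receptor scale the lower calls were 18 related matricellular genes, 19 receptors, 9 latent TGF-β genes and 27 YAP/TEAD genes, and the higher calls 0 receptors, 0 latent TGF-β genes and 0 YAP/TEAD genes. Leaving out 1 library gave 0 to 1 higher and 3 to 9 lower related genes, 2 to 4 higher and 3 to 9 lower receptors, 2 to 2 higher and 3 to 6 lower latent TGF-β genes, and 1 to 4 higher and 5 to 17 lower YAP/TEAD genes.

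The replicate numbers share only a number (correlation of same-numbered deviations -0.214). With them as a block, 5 related genes and 3 receptors were lower, and the total was 1768 higher and 1444 lower. The crossed pairing, chosen after seeing the data, gave 3118 higher and 3037 lower, with 5 receptors higher.

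Single genes turned direction on the T cell receptor scale, *Acvr1b* at -2.01, *Tgfbi* at -1.82, *Thbs4* at -1.28, *Spock2* at -2.03, *Tnxb* at -1.94, *Itga4* at -0.11, *Itgb3* at -0.45, *Nrros* at -1.09 and *Ccdc80* at -2.05. Leaving out each library gave ranges that crossed 0, of -0.06 to 0.39 for *Acvr1b*, -0.12 to 0.42 for *Spock2*, -0.10 to 0.53 for *Tnxb* and -0.21 to 0.18 for *Calr*. The cause was not tested. The few counts of *Ccn2*, *Tnc* and *Postn* limit their precision.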

Other observations

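Other cell markers are given as values, with calls from edgeR's quasi-likelihood test, in which 17.4% of all genes were higher and 15.4% lower. All 6 B cell markers were higher, led by *Cd79b* (log2 fold change 1.69, adjusted p = 4.1e-05) and *Ms4a1* (2.16, adjusted p = 6.2e-07), and summed to 65.5 and 51.5 CPM in the WT-labelled libraries against 170 and 358 CPM in the CD4/ALK4-KO-labelled ones. The 9 endothelial markers summed to 73.6 and 86.0 CPM against 129 and 147 CPM, a sum carried by *Pecam1* (1.72, adjusted p = 2.5e-05), which leukocytes express too, while *Kdr* was at 0.01 (adjusted p = 0.98) and 2 of the 9 were lower, *Egfl7* (-1.93, adjusted p = 0.0045) and *Cldn5* (-1.54, adjusted p = 0.049). The 9 epithelial markers summed to 996 and 970 CPM against 646 and 511 CPM, a sum carried by *Scgb1a1* (-0.73, adjusted p = 0.030), *Krt18* (-1.12, adjusted p = 0.00031) and *Krt8* (-1.09, adjusted p = 0.00041). *Sftpc* and *Sftpa1* were lower as well, whereas the adhesion genes *Epcam* (2.31, adjusted p = 0.0022) and *Cdh1* (1.77, adjusted p = 0.00011), at low levels, were higher. The 7 neutrophil markers summed to 885 and 1375 CPM against 1388 and 898 CPM, where *S100a9* was at 0.01 (adjusted p = 0.99) and *S100a8* at -0.35 (adjusted p = 0.32), and 2 were higher, *Csf3r* (1.05, adjusted p = 0.00087) and *Cxcr2* (0.76, adjusted p = 0.043).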
